A study of Mus musculus with 2 samples.

Results

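The 36 genes described here make up the sterol and fatty acid synthesis programme of the hepatocyte: the SREBP genes with their INSIG partners, the enzymes that build cholesterol, the sterol carrier Stard4, and the enzymes that make, elongate and desaturate fatty acids. They were chosen by gene name. All 36 were found among the 30175 gene names of the spots on the array that were not controls, and 57 probes carried those names. Of the 36 names, 35 are current mouse symbols, and Sc4mol is the older name of Msmo1.

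RNA was measured in mature hepatocytes (MHs) from healthy mouse liver and in Sox9+EpCAM- cells from the liver of mice given a diet with 3,5-diethoxycarbonyl-1,4-dihydrocollidine (DDC), which injures the bile ducts. Sox9+EpCAM- cells are described by the study as hepatocytes of injured liver that have switched on Sox9, a transcription factor of the biliary lineage, and they were sorted as negative for the biliary surface protein EpCAM. Per the methods, all cells came from Sox9-EGFP mice, in which a green fluorescent protein transgene marks Sox9-expressing cells, and the labels call the animals of both arrays male. MHs were isolated by collagenase digestion, low-speed centrifugation and a Percoll gradient, whereas Sox9+EpCAM- cells were sorted by flow cytometry as GFP-positive and EpCAM-negative. Each group had 1 array, so no difference below has a replicate check, and no p-value is given. The age and number of the mice behind each array are not given in the sources used here. Feeding lasted 2 weeks in other experiments on these cells and is not stated for the array. Healthy against injured liver, gradient isolation against sorting, and the mice themselves differed together between the arrays, and their parts cannot be told apart. In bulk RNA, a smaller share of cells that express a gene and less of its RNA per cell cannot be told apart either.

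Spot intensity was divided by the 75th percentile of its array, which was 741 for MHs and 1110 for Sox9+EpCAM- cells, and is called relative intensity below. A relative intensity of 1 is therefore the intensity below which 75 of each 100 spots lay, and it compares the same probe between arrays, not one gene with another. Background was exceeded clearly, by the flag of the scanner software, at 27523 of 43020 spots for MHs and at 32158 for Sox9+EpCAM- cells, and no spot was saturated. Every one of the 36 genes passed this flag on each array through its brightest probe, which stands for the gene below. The log2 difference is that of Sox9+EpCAM- cells minus MHs. Probes printed at least 8 times had a median SD of 0.08 on the log2 scale on either array, and the error that the scanner software assigned to the members' differences had a median of 0.20. These errors cover spots only, not mice.

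The hepatocyte markers Alb, Ttr, Apoa1, Serpina1a and Fgb passed the same flag on each array, with log2 differences of -1.02 to -0.54, and their summed relative intensity was 972 in MHs and 567 in Sox9+EpCAM- cells. Of the biliary markers, Spp1 and Epcam were higher in Sox9+EpCAM- cells (log2 differences 6.93 and 3.73), although the sort was to remove EpCAM-positive cells. The relative intensity of Epcam was 0.188 in MHs and 2.50 in Sox9+EpCAM- cells, so its RNA was higher in cells labelled negative for the surface protein. The study's own quantitative PCR did not find Epcam raised in sorted fractions of such cells, where the MHs came from injured liver. Krt7 and Krt19 differed by -0.23 and 0.42, and Sox9 was well above background in Sox9+EpCAM- cells alone, by at least 0.53. The 5 biliary markers summed to 1.33 in MHs and 45.6 in Sox9+EpCAM- cells. Of 7 fibroblast and stellate cell markers, 5 were higher in Sox9+EpCAM- cells by 2-fold or more, and Dcn and Des differed by 0.31 and 0.09, the latter less than its error of 0.21. Their sums were 12 and 49.4. Leukocyte markers were lower in 5 of 6 cases, with sums of 23.8 and 3.03, with Cd68 as the exception, and the endothelial markers summed to 5.90 and 1.98. The erythroid markers Hba-a1 and Alas2 were lower as well, and Hbb-b1 was not well above background on either array. Xist, made from the inactive X chromosome of females, passed the flag for MHs alone, whereas the Y-linked genes Ddx3y, Kdm5d, Eif2s3y and Uty passed it for Sox9+EpCAM- cells alone, although the labels call both male. The part of other cell types and of sex in the differences below was not tested.

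Cholesterol and fatty acids are made in the liver from acetyl-CoA. Transcription of the enzymes is driven by the SREBP factors, which lie bound in the endoplasmic reticulum by SCAP and the INSIG proteins while sterols are plentiful and are carried to the Golgi and cut free by the site-1 and site-2 proteases when sterols run low. SREBP-2 acts chiefly on cholesterol genes and SREBP-1c on fatty acid genes, the latter also under insulin and the oxysterol receptor LXR. The released factors bind sterol regulatory elements in promoters, usually beside sites for NF-Y or Sp1.

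Members of the programme were mostly lower in Sox9+EpCAM- cells. Of the 36, 27 were lower (75%) and 9 higher, where 55.3% of all 21875 genes with a difference were lower. Read against the median difference of the hepatocyte markers, 19 were lower (52.8%), where 19.9% of all genes were. With the scaling to the 75th percentile the median log2 difference was -0.91, against -0.12 over all genes measured. At least 2-fold lower were 16 members, or 44.4%, where 16.7% of all 23417 genes measured on at least 1 array were. Of those 23417, 1542 were measured on 1 array with no usable bound and count as neither lower nor higher. At least 2-fold higher were 3 members, or 8.33%, where the background was 14.2%. These counts depend on scaling, and so does the background. Against the hepatocyte markers 7 members were at least 2-fold lower (19.4%, background 6.39%) and 8 at least 2-fold higher (22.2%, background 36.2%). By 2-fold, 21 members were lower (58.3%, background 21%) and 2 higher (5.56%, background 11.9%) in the deposited table. At least 4-fold lower were 7 members, or 19.4%, beside 5.57% of all genes, and no member was at least 4-fold higher, beside 5.59% of all genes. At least 4-fold higher were 2 members against the hepatocyte markers (5.56%, background 12.5%), Cyp51 and Srebf2, and 1 under scaling to Fgb (2.78%, background 9.45%). Among the 19232 genes measured on both arrays, as all members were, 17.4% were at least 2-fold lower and 11.8% at least 2-fold higher, and 4.75% and 3.94% were so by 4-fold. The 7 members at least 4-fold lower, Insig1, Dhcr7, Acly, Acss2, Fasn, Thrsp and Scd1, depend on scaling. Under quantile normalization (background 6%) or Gapdh (background 4.3%), 4 were so (11.1%), namely Dhcr7, Fasn, Thrsp and Scd1. Read against the hepatocyte markers, 2 were so (5.56%, background 2.32%), namely Thrsp and Scd1. The 3 largest differences were on the fatty acid side (Scd1, Thrsp and Fasn), and the cholesterol side held both directions.

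**Figure D1:**
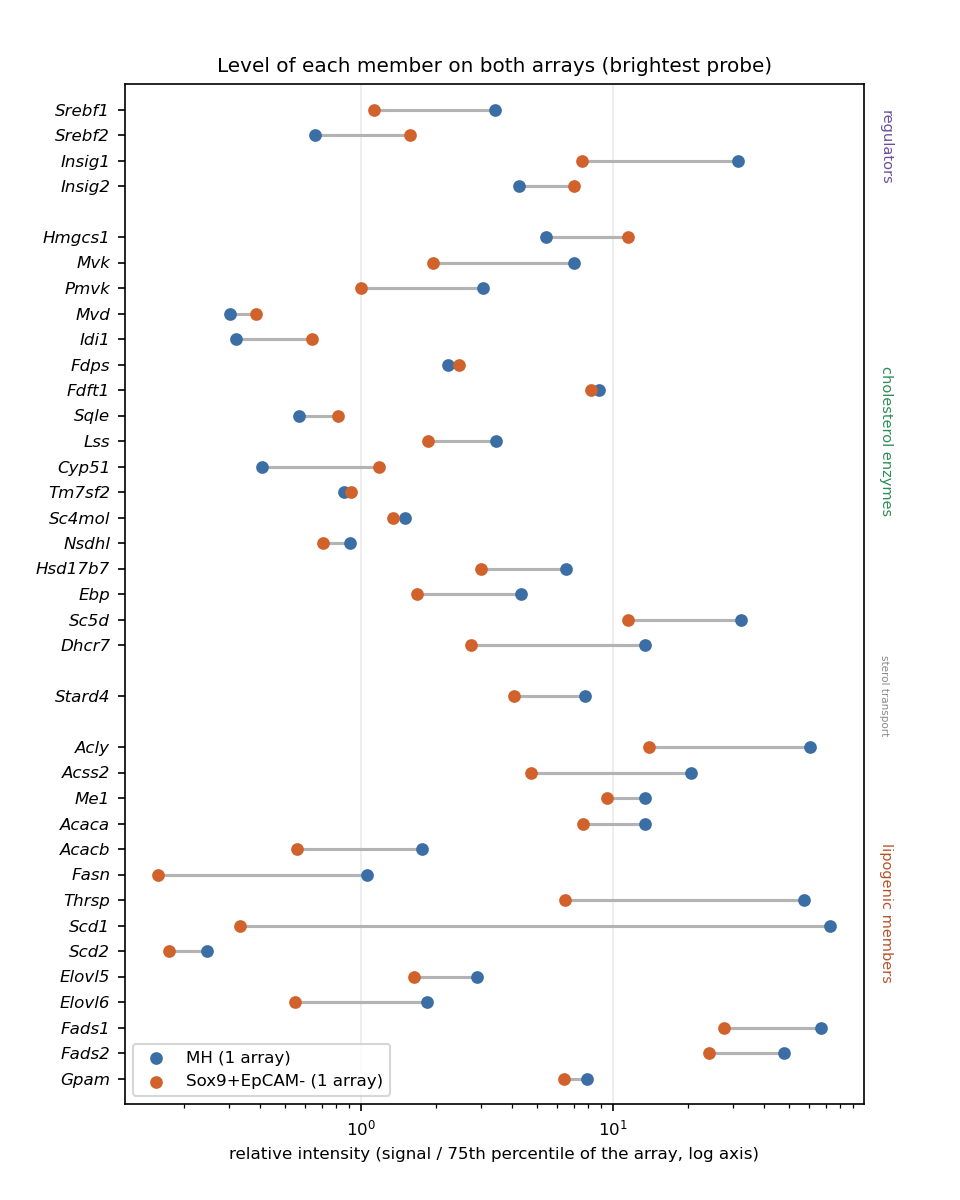
Relative intensity (spot intensity divided by the 75th percentile of the array, log scale) of the 36 genes in MHs and in Sox9+EpCAM- cells, 1 array each, arranged by role; a line joins the 2 values of a gene. Scd1 spans the longest line, from 73.1 to 0.333, whereas Fdps (2.21 and 2.45) and Fdft1 (8.84 and 8.24) have nearly the same value on both arrays.

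The regulators differed in opposite directions. Srebf1, which encodes SREBP-1, had a relative intensity of 3.40 in MHs and 1.13 in Sox9+EpCAM- cells, 3.02-fold lower. Srebf2, which encodes SREBP-2, had 0.661 and 1.58, 2.38-fold higher. A second Srebf2 probe gave 0.602 and 1.02, a log2 difference of 0.76, so that both probes were higher by different sizes.

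The INSIG pair was divided in the same manner. Insig1, an SREBP target that holds SCAP back, had a relative intensity of 31.6 in MHs and 7.54 in Sox9+EpCAM- cells, 4.19-fold lower. Insig2, whose product has the same retaining role but whose gene is not driven by SREBP in the same way, had 4.25 and 7.04, 1.66-fold higher, and its second probe had 0.289 and 0.946, a log2 difference of 1.71. Thus 1 SREBP gene and 1 INSIG gene were lower and their partners higher. By its brightest probe Insig2 did not reach 2-fold here, but did so under quantile normalization (log2 difference 1.02) and against the hepatocyte markers (1.59). The Insig1 probe lies at chr5:28404246-28404305 and the Srebf1 probe at chr11:60012664-60012723 of the mm9 genome.

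Genes of the SREBP machinery outside the set differed little. Scap, the sterol sensor and escort of SREBP, had 2.47 in MHs and 2.32 in Sox9+EpCAM- cells. Mbtps1, the site-1 protease, had 1.21 and 1.43, and Mbtps2, the site-2 protease, had 0.251 and 0.272. These 3 log2 differences lay between -0.09 and 0.24.

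Promoters were read from RefSeq (GRCm38.p6) as the 250 bases before each transcription start and the 50 after it, since members that share a factor can share its letters there. A window was found for 29 of the 36 members, 38 windows in all. Fdps, Fdft1, Sqle, Stard4, Scd1, Scd2 and Fads1 had none. Both strands were searched for 4 sets of letters, and the capitals below mark the first 3 of them: TCACNCCAC, the core of a sterol regulatory element, CACGTG, the E-box to which SREBP can also bind, CCAAT, the NF-Y box, and GGGCGG, the Sp1 box. The 250 bases upstream of 5 members are shown 5′ to 3′ on the gene's strand, to set 3 genes that differed downwards by 4-fold or more (Fasn, Thrsp and Insig1) beside 2 that differed upwards by 2-fold or more (Hmgcs1 and Cyp51). They lie at chr11:120824548-120824797 (minus strand), chr7:97417551-97417800 (minus), chr5:28071162-28071411 (plus), chr13:119690101-119690350 (plus) and chr5:4104698-4104947 (minus), in that order.
Fasn: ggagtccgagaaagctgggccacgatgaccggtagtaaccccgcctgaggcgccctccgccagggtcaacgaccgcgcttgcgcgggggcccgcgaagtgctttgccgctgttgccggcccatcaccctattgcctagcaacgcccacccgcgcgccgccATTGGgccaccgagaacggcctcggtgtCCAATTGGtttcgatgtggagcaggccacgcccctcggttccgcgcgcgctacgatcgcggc
Thrsp: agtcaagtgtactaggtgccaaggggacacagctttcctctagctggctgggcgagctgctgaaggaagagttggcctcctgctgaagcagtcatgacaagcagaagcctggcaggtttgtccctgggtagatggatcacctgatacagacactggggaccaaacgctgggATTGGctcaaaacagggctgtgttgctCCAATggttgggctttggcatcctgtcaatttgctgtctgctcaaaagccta
Insig1: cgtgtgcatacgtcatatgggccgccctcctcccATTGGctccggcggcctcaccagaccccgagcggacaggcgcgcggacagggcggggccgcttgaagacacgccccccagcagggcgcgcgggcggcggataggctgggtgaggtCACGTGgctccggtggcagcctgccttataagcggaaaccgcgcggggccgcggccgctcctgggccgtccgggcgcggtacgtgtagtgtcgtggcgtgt
Hmgcs1: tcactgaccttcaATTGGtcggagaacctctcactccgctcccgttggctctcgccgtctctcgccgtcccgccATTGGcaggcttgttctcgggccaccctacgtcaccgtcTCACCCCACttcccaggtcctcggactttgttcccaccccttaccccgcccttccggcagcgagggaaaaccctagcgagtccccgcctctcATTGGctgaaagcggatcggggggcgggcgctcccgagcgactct
Cyp51: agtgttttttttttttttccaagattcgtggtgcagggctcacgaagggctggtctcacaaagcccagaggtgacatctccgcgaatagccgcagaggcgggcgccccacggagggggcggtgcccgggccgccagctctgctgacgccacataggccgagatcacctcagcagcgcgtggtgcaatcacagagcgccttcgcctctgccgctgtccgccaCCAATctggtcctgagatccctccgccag

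The core TCACNCCAC was found in 1 of the 38 member windows (2.63%), that of Hmgcs1, with its first base at -137 from the start, beside 1.24% of all 32851 windows. The E-box was found in Insig1 at -101 and in the windows of Dhcr7, Sc5d, Hsd17b7 and Elovl5, in 5 of the 38 member windows (13.2%), beside 7.15% of all windows. All 5 members with an E-box had a lower intensity in Sox9+EpCAM- cells by their brightest probe, where 75% of the 36 members and 55.3% of all genes did. Elovl5 was lower by less than 2-fold and stood at 0.03 against the hepatocyte markers, and another Hsd17b7 probe gave 0.12. The single member with the core was higher. With so few matches these are descriptions of the windows, and no match says only that these letters are not in them.

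CCAAT was found in 27 of the 38 member windows (71.1%), beside 37.4% of all windows, and in 26 of the 29 members, beside 41.1% of all 27025 genes. It was in all 14 cholesterol enzymes with a window, in all 4 regulators, and in 8 of 11 lipogenic genes, the exceptions being Acaca, Elovl6 and Fads2. Fasn held it at -90, and at -62 and -59 on opposite strands where the copies overlap. Thrsp held it at -79 and -52, Cyp51 at -29, Insig1 at -216 and Hmgcs1 at -237, -176 and -45 and once past the start, at 11. The shown genes that were lower and those that were higher both had these letters.

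GGGCGG was found in 25 of the 38 windows (65.8%), beside 35.7% of all windows. It was in 13 of 14 cholesterol enzymes, in all 4 regulators and in 5 of 11 lipogenic genes. Fasn and Thrsp had no match to it in the window.

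**Figure D2:**
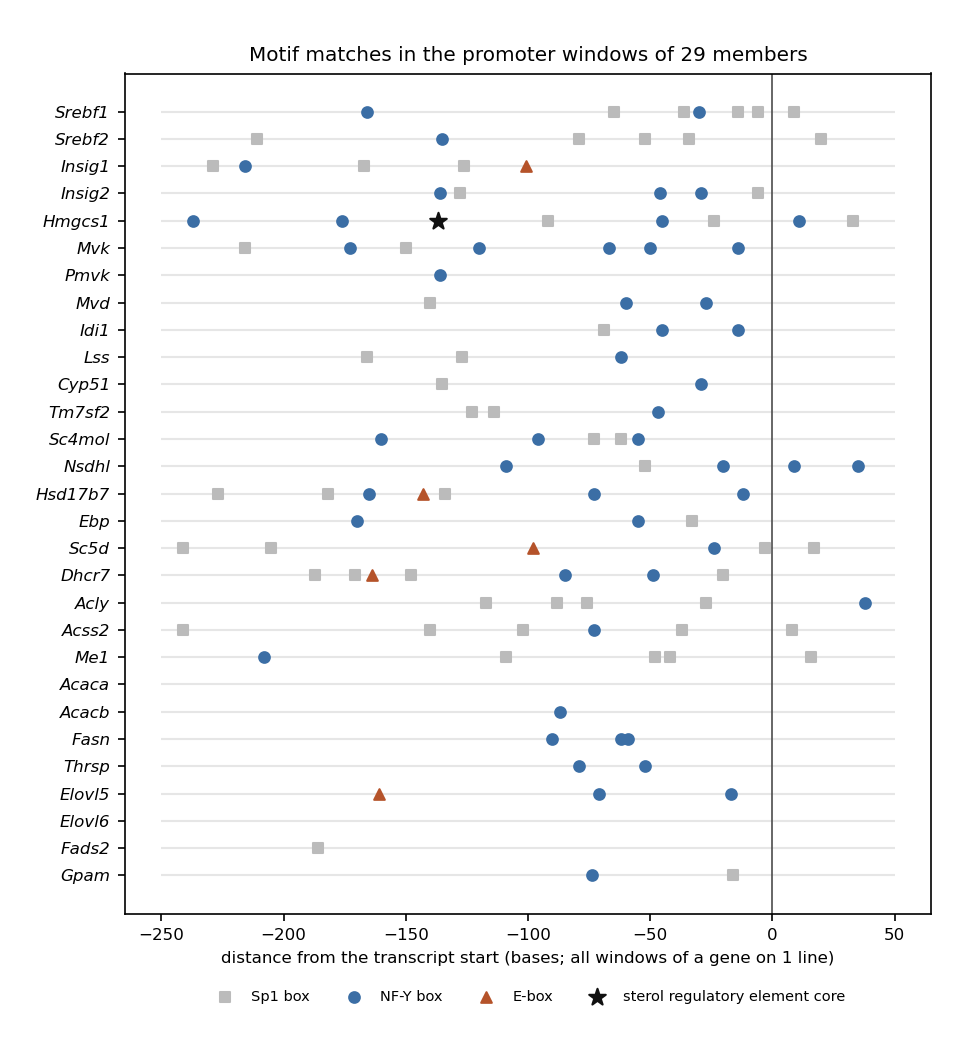
Matches to the 4 sets of letters in the promoter windows of the members (x axis, distance from the transcription start in bases; all windows of a gene on 1 line, ordered by role). CCAAT (NF-Y box) matches appear in 27 of 38 windows and the sterol element core in 1, that of Hmgcs1.

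The cholesterol enzymes held both directions. With the scaling to the 75th percentile the share that was lower was near that of all genes, but the share at least 2-fold lower was larger. Read against the hepatocyte markers, 41.2% were lower, where 19.9% of all genes were. Of 17, 10 were lower (58.8%, background 55.3%) and 7 higher, 6 at least 2-fold lower (35.3%, background 16.7%) and 2 at least 2-fold higher (11.8%, background 14.2%). Their median log2 difference was -0.16, with a range of -2.30 to 1.54. This median lay close to that of all genes, and its sign changed with scaling: it was 0.11 when arrays were scaled to Gapdh and 0.71 when read against the hepatocyte markers.

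The first part of the pathway turns acetyl-CoA into mevalonate and then into squalene. Hmgcs1, which makes HMG-CoA, had a relative intensity of 5.45 in MHs and 11.5 in Sox9+EpCAM- cells, 2.12-fold higher, and its second probe, not well above background in MHs, was higher by at least 1.11 on the log2 scale.

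The kinases that follow had the most negative differences of this stretch. Mvk, mevalonate kinase, had 7.06 in MHs and 1.95 in Sox9+EpCAM- cells, 3.63-fold lower, while its second probe differed by -0.47. Pmvk, phosphomevalonate kinase, had 3.05 and 1.0, 3.05-fold lower, and -1.21 by its second probe.

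The remaining enzymes up to squalene showed small or positive differences. Mvd, the decarboxylase that yields isopentenyl diphosphate, had 0.302 and 0.383, a log2 difference of 0.34. Idi1, the isomerase of that product, had 0.321 and 0.642 and stood just under 2-fold higher. Fdps, which joins the isoprene units into farnesyl diphosphate, had 2.21 and 2.45, a log2 difference of 0.15. Its probe shares a stretch of 20 bases with probes of other names on the array, so its intensity is uncertain. Fdft1, squalene synthase, had 8.84 and 8.24 by its brightest probe (-0.10) and -1.09 by the other. Over the 7 enzymes to squalene, 3 were lower and 4 higher, with a median of 0.15, where 55.3% of all genes were lower. Read against the hepatocyte markers, Fdft1 was higher too (0.77).

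The second part closes squalene into lanosterol and trims it to cholesterol. Sqle, squalene epoxidase, had 0.572 in MHs and 0.815 in Sox9+EpCAM- cells, giving a log2 difference of 0.51. Lss, lanosterol synthase, had 3.44 and 1.86, a log2 difference of -0.89. Cyp51, the 14-alpha-demethylase of lanosterol, had 0.406 and 1.18 and was 2.91-fold higher, the largest positive difference of the set. Of the 19232 genes well above background on both arrays, 1214 had a higher difference than Cyp51.

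Enzymes at the middle steps were close to equal on the arrays. Tm7sf2, a sterol reductase, had 0.858 and 0.919 (0.10). Sc4mol, the C4-methyl oxidase, had 1.5 and 1.34 (-0.16), and Nsdhl, which removes the resulting carboxyl group, had 0.907 and 0.711 (-0.35). The differences of Tm7sf2 and Sc4mol were smaller than the software's error of 0.20, and that of Nsdhl was larger.

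The last steps were lower by their brightest probes. Hsd17b7, the 3-keto reductase, had 6.56 in MHs and 3.0 in Sox9+EpCAM- cells, 2.19-fold lower, although its second probe differed by 0.12. Ebp, the isomerase, had 4.33 and 1.68, 2.59-fold lower, and Sc5d, the C5 desaturase, had 32.3 and 11.5, 2.80-fold lower. Dhcr7, which makes cholesterol from 7-dehydrocholesterol, had 13.5 and 2.74, 4.91-fold lower, the largest difference of the cholesterol enzymes, and 641 of the 19232 genes had a lower one. Its probe lies at chr7:151033874-151033933 (mm9). Over the 10 enzymes from squalene on, 7 were lower and 3 higher, with a median of -0.62, where 55.3% of all genes were lower. This split depends on scaling. Read against the hepatocyte markers, Sc4mol (0.71) and Nsdhl (0.52) were higher and Lss was nearly equal (-0.02), where 19.9% of all genes were lower.

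Stard4, which carries cholesterol between membranes and is an SREBP target, had 7.75 in MHs and 4.06 in Sox9+EpCAM- cells, giving a log2 difference of -0.93 that stops short of 2-fold. Its second probe differed by -0.08.

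**Figure D3:**
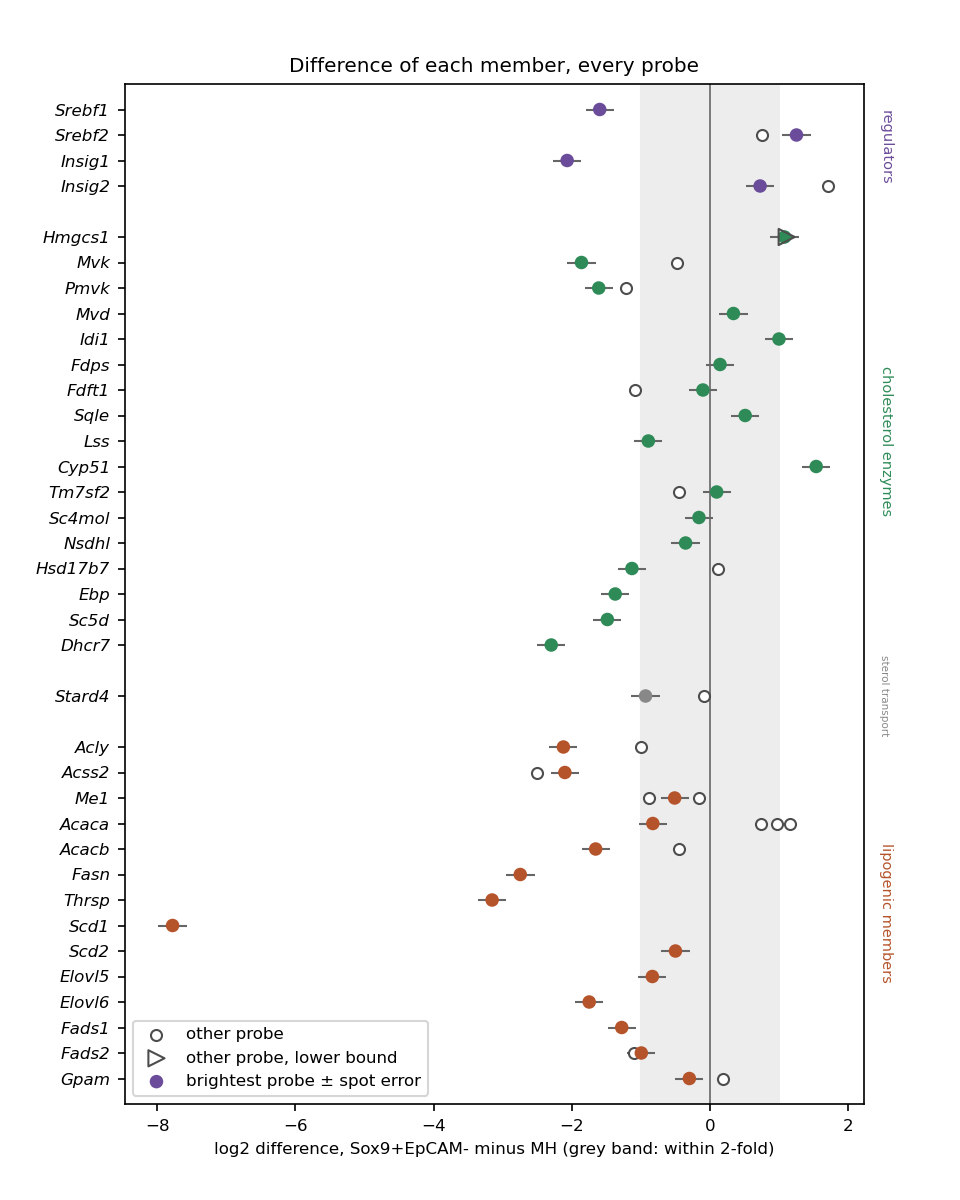
Log2 difference (Sox9+EpCAM- cells minus MHs) of the 36 genes by role, with the brightest probe of each gene filled, its error assigned by the scanner software as a bar, and its other probes open; the grey band is within 2-fold, and the triangle is a lower bound for the Hmgcs1 probe that was not well above background in MHs. Cholesterol enzymes spread from -2.30 to 1.54, and the lipogenic members from -7.78 to -0.30, with 3 open probes of Acaca to the right of 0.

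The 14 lipogenic members were all lower by their brightest probe, where 55.3% of all genes were lower. Some were not lower under other settings. Gpam stood at 0.02 under quantile normalization, and Acaca at 0.86 by the median of its probes and 1.16 by the probe of largest difference. Scaled to Fgb, Me1, Scd2 and Gpam stood between 0.07 and 0.29. Read against the hepatocyte markers, Me1, Acaca, Scd2, Elovl5 and Gpam stood between 0.03 and 0.57. Of the 14, 8 were at least 2-fold lower (57.1%, background 16.7%), none was at least 2-fold higher (background 14.2%), and 5 were at least 4-fold lower (35.7%, background 5.57%). These 5 became 3 (21.4%) under quantile normalization (background 6%) or Gapdh (background 4.3%), and 2 against the hepatocyte markers (14.3%, background 2.32%). The median log2 difference was -1.46. The smallest was Gpam, the mitochondrial acyltransferase that starts triglyceride synthesis, with 7.88 and 6.41 (-0.30).

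Enzymes that supply acetyl-CoA and reducing power came first. Acly, which splits cytosolic citrate into acetyl-CoA, had a relative intensity of 60.7 in MHs and 14 in Sox9+EpCAM- cells, 4.35-fold lower, and its second probe differed by -1.0. That second probe read 32 and 23.9 before scaling, near the lowest signals well above background (27.8 and 18.4), with an error of 0.40. Acss2, which makes acetyl-CoA from acetate, had 20.4 and 4.76, 4.28-fold lower, with -2.50 by the second probe. Me1, malic enzyme and a source of NADPH, had 13.5 and 9.46 (-0.51), and its other probes gave -0.88 and -0.15. Me1 was thus the least different of the suppliers.

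Fasn and Thrsp were lower by larger factors than these suppliers. Fasn, fatty acid synthase, whose promoter letters are shown above, had 1.06 in MHs and 0.158 in Sox9+EpCAM- cells, 6.70-fold lower. Thrsp, or Spot 14, a nuclear protein that follows lipogenic signals, had 57.4 and 6.45, 8.89-fold lower. Of the 19232 genes, 393 had a lower difference than Fasn and 250 a lower one than Thrsp. The Fasn probe lies at chr11:120667666-120667725 and the Thrsp probe at chr7:104561649-104561708 (mm9).

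The acetyl-CoA carboxylases make malonyl-CoA and did not give a uniform picture. Acacb, the mitochondrial form, had 1.75 in MHs and 0.558 in Sox9+EpCAM- cells, 3.15-fold lower, and -0.45 by its second probe. Acaca, the cytosolic form, had 13.5 and 7.61 by its brightest probe, a log2 difference of -0.83, but its other 3 probes gave 1.16, 0.98 and 0.74, so the direction of Acaca rests on the probe. The brightest probe lies at chr11:84211638-84211697, and 2 of the others lie at chr11:84215093-84215152 and chr11:84215094-84215153 (mm9), overlapping but for 1 base, so that they are not separate measurements of the gene. Over the 7 genes of supply and synthesis, 5 were at least 2-fold lower (71.4%, background 16.7%), 4 of them at least 4-fold (57.1%, background 5.57%), with a median of -2.10. Those 4 became 2 (28.6%) under quantile normalization (background 6%) or Gapdh (background 4.3%), and 1, Thrsp, against the hepatocyte markers (14.3%, background 2.32%).

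Scd1, the stearoyl-CoA desaturase that makes oleate and is the chief form in liver, had the largest difference of the set. Its probe read 54200 in MHs against 370 in Sox9+EpCAM- cells before scaling, or 73.1 and 0.333 after it, 219-fold lower. Only 7 of the 19232 genes had a lower difference. The probe lies at chr19:44469387-44469446 (mm9). Scd2, the form of brain and other tissues, had 0.246 and 0.174 (-0.50) from a probe at chr19:44381024-44381083, and was within 2-fold. Scd3, which was not a member, had 100 and 0.982, 102-fold lower, and its probe shares no 20-base stretch with a probe of another name. That check set probes against probes, not transcripts, so whether the Scd3 probe also reads Scd1 RNA was not tested.

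Fatty acids are lengthened and further desaturated by the elongases and the fatty acid desaturases. Elovl6, which extends palmitate, had 1.84 in MHs and 0.547 in Sox9+EpCAM- cells, 3.36-fold lower. Elovl5, which acts on polyunsaturated chains, had 2.89 and 1.62 (-0.83). Fads1, the delta-5 desaturase, had 67.2 and 27.7, 2.42-fold lower. Fads2, the delta-6 desaturase, had 48.0 and 24.1 and lay just under 2-fold lower by this probe and just past it by the other (-1.09). Of these 6 genes with Scd1 and Scd2, 3 were at least 2-fold lower (50%, background 16.7%), and all 6 were lower (background 55.3%). Read against the hepatocyte markers, all but Scd2 and Elovl5 were lower (background 19.9%). The 3 became 2, without Fads1, under quantile normalization (33.3%, background 16.8%) and under Fgb (33.3%, background 8.62%). They became 1, Scd1, against the hepatocyte markers (16.7%, background 6.39%), and were 5 in the deposited table (83.3%, background 21%).

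**Figure D4:**
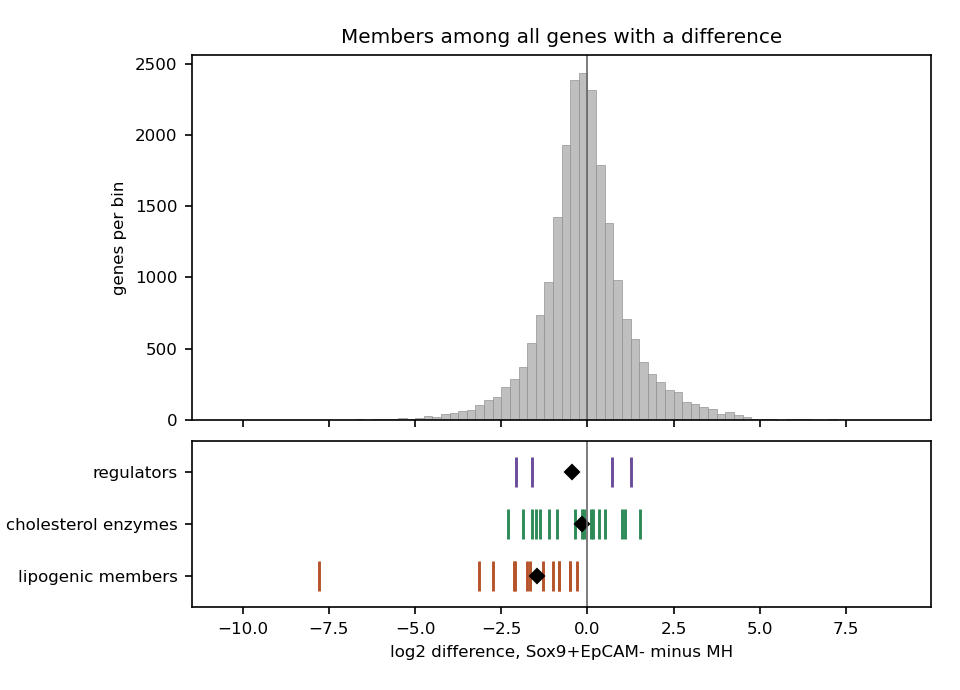
Log2 difference (Sox9+EpCAM- cells minus MHs) of the 21875 genes with a difference (histogram, genes per bin, with bounds for those measured on 1 array), above the members as ticks by role and the median of each group as a diamond. Lipogenic members sit from the left tail at -7.78 (Scd1) to -0.30, and the cholesterol enzymes lie on either side of 0.

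Other genes of lipid synthesis and handling were read from a further list of 36 names, of which 35 had a usable probe. Of these, 30 were measured on both arrays, 2 on the MH array alone and 1 on the Sox9+EpCAM- array alone, and Acss1 and Elovl3 were on neither well above background. At least 2-fold lower were 12 (36.4%, background 16.7%), at least 2-fold higher 2 (6.06%, background 14.2%), and 19 lay within 2-fold, with a median of -0.71.

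Besides Scd3, those genes were Dgat2, Mcat, Mylip and Abcg1, all lower. Dgat2, which completes triglycerides, had 11.8 in MHs and 2.13 in Sox9+EpCAM- cells, 5.57-fold lower. Mcat, of mitochondrial fatty acid synthesis, had 0.779 and 0.156, 5.0-fold lower. Mylip, a ubiquitin ligase and LXR target, and Abcg1, an LXR target that exports cholesterol, were well above background in MHs alone and at least 65.8-fold and 9.04-fold lower. The 2 genes at least 2-fold higher were G6pdx, the first enzyme of the pentose phosphate pathway and a source of NADPH, by 2.11-fold, and Elovl7, an elongase well above background in Sox9+EpCAM- cells alone, by at least 3.55-fold.

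Probes of the same gene were compared, since 17 members had several. For 4 genes, Tm7sf2, Hsd17b7, Acaca and Gpam, the probes differed in sign. The second probes gave -0.44 for Tm7sf2 and 0.19 for Gpam, and those of Hsd17b7 and Acaca are given above. Of the 57 probes, 54 were well above background on both arrays and 2 on the Sox9+EpCAM- array alone, and 1 was so on neither. The target coordinates of 55 span 60 bases, the length of the probe, whereas those of a Fdft1 and a Stard4 probe span more. The remaining 19 members rest on a single probe, Scd1, Thrsp, Fasn, Dhcr7 and Cyp51 among them.

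Because the hepatocyte markers were themselves lower, the differences were also read against the median of the 5 markers' log2 differences, a scaling chosen after the data were seen that adds 0.87 to each log2 difference. The median of all genes on both arrays was then 0.67, that of the cholesterol enzymes 0.71 and that of the lipogenic members -0.60. Of the lipogenic members, 9 of 14 were lower on this scale (64.3%, where 19.9% of all genes were), and 5, Me1, Acaca, Scd2, Elovl5 and Gpam, were not. On this scale 6.39% of all genes were at least 2-fold lower and 36.2% at least 2-fold higher. Of the cholesterol enzymes, 7 were lower (41.2%, where 19.9% of all genes were). At least 2-fold lower was 1 (Dhcr7, 5.88% of the 17), and at least 2-fold higher were 6 (35.3%), and these 2-fold shares were near those of all genes. The lipogenic members at least 2-fold lower were then 5 (35.7%), namely Acly, Acss2, Fasn, Thrsp and Scd1. The arrays were also scaled to Fgb alone, whose unscaled intensity was 122000 on each array, so that this sets the unscaled intensities side by side. Each log2 difference then gains 0.58, and 11 of 14 lipogenic members were lower (78.6%, where 28.7% of all genes were).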

How the data were processed

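Per the labels, RNA of MHs and of Sox9+EpCAM- cells was hybridised in 1 colour (Cy3) to Agilent mouse arrays, 1 per group, and the labelling protocol is undisclosed. The authors deposited the spot intensity written by Feature Extraction 10.7.3.1, with background subtracted and no normalization between arrays. They also deposited a table of ratio values, each of which was the processed intensity divided by the median of its array (the SD of the log2 factor was 0.0018). Probe coordinates are on mm9, and the exon or UTR under a probe was not looked up. No sample column was left unused.

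Control spots and spots marked as outliers or not uniform on either array were dropped, and repeat spots were averaged, leaving 39390 probes for 30153 genes. Each intensity was divided by its array's 75th percentile before log2 was taken. The brightest probe stands for a gene. A probe well above background on 1 array alone entered by a bound, its bright value against a floor, the smallest signal flagged well above background on the dim array (27.8 for MHs, 18.4 for Sox9+EpCAM- cells) or its own signal there if that was larger. Where the bright value was not past this floor after scaling, no difference was given (1542 genes, and 1 Nsdhl probe among the members). Genes well above background on neither had no difference. Rules of size of 2-fold and 4-fold replace a test, and precision is limited by having 1 array a group.

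All 36 members were named, with Scap, Mbtps1, Mbtps2 and any other gene of the pathway at least 4-fold different. Acss1, Elovl3, G6pdx and Elovl7 were named after their values were seen. Some genes of the pathway are not reported here. Members and lists were chosen with earlier results of these data known. The alternatives were normexp background correction (offset 50, limma 3.58.1 in R 4.3.3), other scalings (the median over probes bright on each array, quantile, Gapdh, Fgb, the median difference of the hepatocyte markers), the deposited table, other choices of probe, the marked spots kept, no bound, and genes measured on both arrays only. Python 3.11.15 with pandas 2.3.3, numpy 2.4.6 and matplotlib 3.10.9 did the rest. The scripts were tested on simulated data. Promoter windows came from RefSeq (GRCm38.p6), and none of its coordinates was mixed with those of mm9.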

Additional observations from a re-analysis of the deposited data

How the results depend on the processing

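No paired analysis was possible because there was 1 array for MHs and 1 for Sox9+EpCAM- cells. Leaving out an array and fitting the slide as a block were not run, for want of further arrays. Of the 17 cholesterol enzymes, 6 were at least 2-fold lower, which became 3 under scaling to Fgb, 1 under the median difference of the hepatocyte markers and 1 at 4-fold. The 2 at least 2-fold higher became 1 in the deposited table, 4 under Fgb, 6 under the hepatocyte markers and 0 at 4-fold. The share of all genes at least 2-fold lower was 16.7% with the main scaling, 16.8% under quantile normalization and 21% in the deposited table. It was 8.62% under Fgb and 6.39% under the hepatocyte markers. At least 2-fold higher were 14.2% with the main scaling, 11.9% in the deposited table, 26.6% under Fgb and 36.2% under the hepatocyte markers. By 4-fold, 5.57% were lower and 5.59% higher with the main scaling. The 8 lipogenic members at least 2-fold lower became 5 at 4-fold and 5 under the hepatocyte markers, and otherwise ranged from 7 (quantile, Fgb) to 11 (deposited table). The 0 at least 2-fold higher became 1, Acaca, with the probe of largest difference. The median of the cholesterol enzymes ranged from -0.44 to 0.71 and changed sign under Gapdh (0.11), Fgb (0.42) and the hepatocyte markers (0.71), whereas that of the lipogenic members stayed between -1.64 and -0.60, the last under the hepatocyte markers. Scaling moved all genes by 0.27 (Gapdh), -0.18 (deposited table), 0.58 (Fgb) and 0.87 (hepatocyte markers), and these last 2 were chosen after the data were seen. Fdft1 changed sign under 5 of the settings, reaching 0.77 under the hepatocyte markers. By more than 1.5-fold, all 36 members moved under the hepatocyte markers, since that shift is common to all, 4 (Mvk, Hsd17b7, Acaca and Acacb) with the median of probes and 3 (Insig2, Fdft1 and Acaca) with the probe of largest difference, and 0 under the others. The cause was not tested. The lowest signal well above background, 27.8 and 18.4, bounds the dimmest level that could be measured, and every member lay above it on both arrays by its brightest probe.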
